A study of Mus musculus with 8 samples.

Results

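The contractile apparatus of smooth muscle was followed through 10 genes in synchronized mouse testes: Acta2, Actg2, Myh11, Myl9, Mylk, Cnn1, Smtn, Lmod1, Tagln and Des. They were chosen by symbol, and all 10 were found among the 54532 genes of the deposited table. In the testis, peritubular myoid cells form a flattened contractile layer around each seminiferous tubule and move sperm and tubule fluid along the lumen. Vascular smooth muscle cells of the testis use the same apparatus, so the genes do not separate the tubule wall from the vessel wall. Force is made when myosin pulls on actin filaments. A calcium signal activates myosin light chain kinase, which phosphorylates the regulatory light chain of myosin, and a phosphatase reverses this step. Transcription of these genes is classically controlled by serum response factor (SRF) with its partner myocardin or the related MKL proteins, through a DNA element called the CArG box.

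RNA-seq was performed on whole testes, taken from 4 control mice (Sync-Spdya fl/fl) and 4 conditional knockout mice (Sync-Spdya cKO), and each mouse gave 1 library. Both groups carried the floxed Spdya alleles, both had meiosis synchronized by a block of retinoic acid (RA) synthesis followed by RA, and both received tamoxifen, at RA7.5 and RA8.5 by the sample labels. The cKO mice also carried Ddx4-CreERT2, a tamoxifen-activated recombinase driven by a germ cell promoter, and the mouse lines were made on the C57BL/6J background. Testes of these juvenile mice were collected at RA11.5, when germ cells are in mid-late pachytene. SpdyA (Speedy A) binds and activates CDK2 in meiosis. The study was about how SpdyA governs the separation of the X and Y chromosomes in pachytene spermatocytes. It used this RNA-seq to ask about silencing of the sex chromosomes. The contractile genes are treated here as genes of somatic cells, and which cells express them was not measured. In reporter mice the paper saw recombinase activity in germ cells and no evidence of it in somatic cells. The somatic cells stained there were Sertoli cells, not myoid or vascular cells. In bulk tissue, fewer cells of a type and less RNA per cell cannot be told apart, and a share taken by one cell type lowers the shares of the others.

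The libraries held 13978342 to 17867570 fragments on genes in the control group and 15494873 to 19583091 in the cKO group. Values are FPKM, in which the fragments counted for a gene are scaled by gene length and by library size. Mitochondrial genes took 0.464% of the fragments in control library 1 and 2.20% to 3.74% in the other 7 libraries, so results are also given without control library 1 where it matters. Spdya itself, counted over the whole gene, had 21.4 ± 1.76 FPKM (SD, n = 4) in the control libraries and 24.1 ± 5.45 FPKM (SD, n = 4) in the cKO libraries. The deletion removes part of this gene, and a value over its whole length does not check that deletion. Each gene was compared by limma on log2(FPKM + 0.1) among 12141 protein-coding genes with a mean above 1 FPKM in both groups. A gene was called at a Benjamini-Hochberg adjusted p below 0.05 together with an absolute log2 fold change above 1, and 0.0165% of the genes tested were called.

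None of the 8 contractile genes that passed this filter was called, and the adjusted limma p-values of these 8 ranged from 0.178 to 0.838. Cnn1 and Tagln were below the filter and are given from a fit of 15937 genes with a mean above 0.1 FPKM over the 8 libraries. At an unadjusted p below 0.05, Myl9, Acta2, Smtn and Lmod1 were higher in cKO testes and no contractile gene was lower. That is 4 of 8, while 5.89% of all genes tested were higher at this level. The log2 fold change was above 0 in all 8 tested genes and in 51.96% of all genes tested. Their median log2 fold change was 0.52, against 0.01 over all genes tested. These counts describe genes picked as a related group, and the genes are not independent of each other.

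The levels of the 10 genes spanned 119.8-fold between the highest and lowest mean over the 8 libraries. Myl9 and Acta2 dominated, and together they made up 82.3% of the summed FPKM of the group in control testes and 85.2% in cKO testes. Myh11 and Mylk formed a middle tier near 10 FPKM, with means of 9.20 and 8.90 FPKM in control testes that did not differ beyond their SD. Smtn followed at 3.17 FPKM and Lmod1 at 1.67 FPKM. The control means of Des, Actg2, Cnn1 and Tagln lay between 0.855 and 1.27 FPKM. Des exceeded Cnn1 in every control library, and the ranges of genes next to each other in this order overlapped. Acta2, Myl9 and Myh11 were present in every library. Tagln and Cnn1, usually abundant in mature smooth muscle, stood at the 43.1 and 43.4 percentile of the protein-coding genes in control testes.

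**Figure D1:**
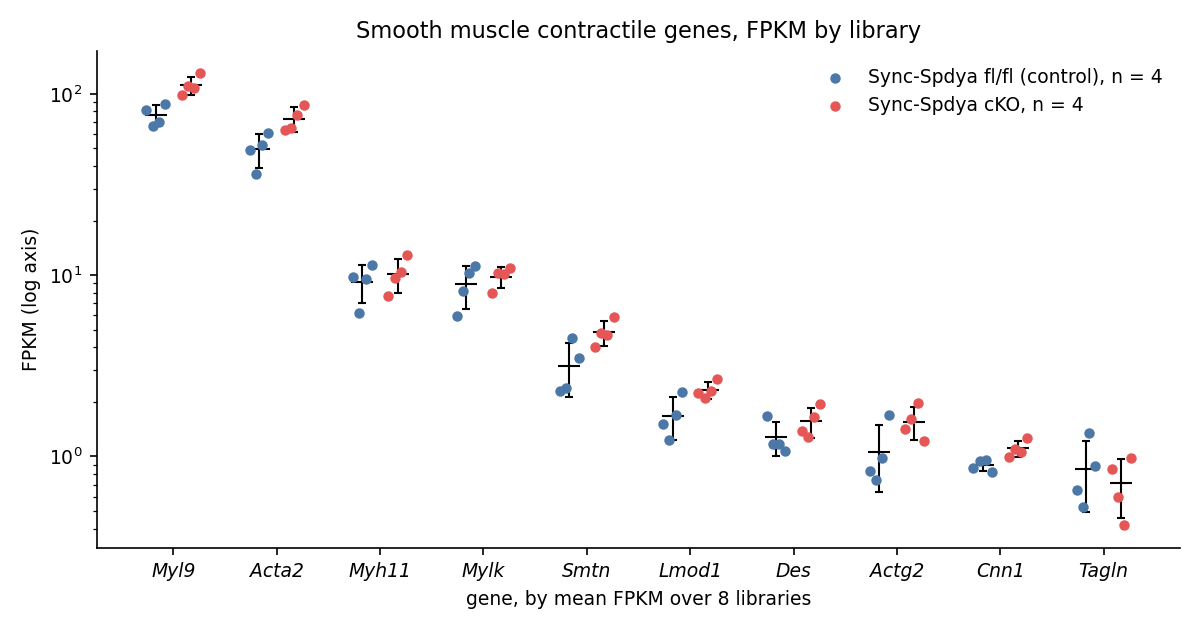
FPKM (log axis) of each contractile gene in the 4 control (blue) and 4 cKO (red) libraries, with black bars for the mean ± SD. Myl9 and Acta2 lie far above the other genes, and for both every cKO library sits above every control library.

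Promoter sequences of Myl9 and Acta2 are shown because these are the most abundant of the genes and the tested ones whose groups did not overlap. RefSeq windows of 300 bases around the RefSeq gene start were available for 7 of the 10 genes (GRCm38.p6). They were searched for the CArG box, written here as CC, then 6 bases that are A or T, then GG, which reads the same way on both strands. Such a box was present in 1.63% of all 32851 promoter windows, and a box with 1 central base replaced by C or G in 8.5%. The Myl9 window held 1 box of each kind, starting 161 and 99 bases before the RefSeq start at 156775464, which is 117 and 55 bases before the start of Myl9 in the deposited table. The Acta2 window held 2 of the second kind, starting 84 and 34 bases before the RefSeq start at 34255373, and both lie within the first exon of an Acta2 transcript annotated by GENCODE vM21, which starts upstream of the deposited gene start. The windows of Des, Lmod1, Cnn1, Smtn and Mylk held neither. Those of Smtn (chr11:3539243-3539542) and Mylk (chr16:34784700-34784999) lie inside the deposited genes. The deposited starts of Smtn and Mylk, at 3540612 and 34745210, were outside the windows searched. A match of letters is not a measured binding site, and no binding was measured here. The stretch of Myl9 upstream of its annotated exons (plus strand, chr2:156775214-156775419) and the 2 Acta2 sites with their flanks (minus strand, chr19:34255438-34255467 and chr19:34255388-34255417) are written 5′ to 3′ with the boxes in capitals.
Myl9: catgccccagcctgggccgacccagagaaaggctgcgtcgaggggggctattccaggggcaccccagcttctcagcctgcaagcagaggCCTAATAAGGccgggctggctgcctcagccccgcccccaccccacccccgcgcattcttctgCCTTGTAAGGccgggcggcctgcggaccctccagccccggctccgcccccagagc
Acta2, upstream site: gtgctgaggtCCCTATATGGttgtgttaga
Acta2, downstream site: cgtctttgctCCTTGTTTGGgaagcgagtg

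Among the actins, Acta2 was the abundant smooth muscle form. Acta2 encodes smooth muscle alpha-actin (ENSMUSG00000035783, GRCm38 chromosome 19, 34241090 to 34255336, minus strand). Its level was 48.7, 36.0, 52.5 and 60.8 FPKM in control libraries 1 to 4 and 63.1, 64.6, 76.4 and 87.1 FPKM in cKO libraries 1 to 4. The groups did not overlap, with means of 49.5 ± 10.3 and 72.8 ± 11.2 FPKM (SD, n = 4 each). The log2 fold change of Acta2 was 0.57 with a standard error of 0.17 (limma adjusted p = 0.287). Without control library 2, the lowest of the 8, it was 0.42 (adjusted p = 0.377).

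Actg2 encodes the gamma-actin of visceral smooth muscle (ENSMUSG00000059430, GRCm38 chromosome 6, 83512905 to 83536265, minus strand). Its level was 0.833, 0.744, 0.986 and 1.69 FPKM in control libraries 1 to 4 and 1.42, 1.61, 1.98 and 1.21 FPKM in cKO libraries 1 to 4. Control library 4 overlapped the cKO group, and the difference missed an unadjusted p of 0.05 (log2 fold change 0.55, standard error 0.26, adjusted p = 0.482). Each Actg2 value rested on 17 to 52 fragments. Acta2 exceeded Actg2 by log2 ratios of 5.45 ± 0.27 in control and 5.47 ± 0.40 in cKO testes (SD, n = 4 each).

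On the myosin side, Myl9, the regulatory light chain of smooth muscle myosin (ENSMUSG00000067818, GRCm38 chromosome 2, 156775420 to 156781658, plus strand), had the smallest p of the 10 genes. It stood at 81.8, 66.1, 69.6 and 87.4 FPKM in control libraries 1 to 4 and at 98.9, 110.0, 107.6 and 129.6 FPKM in cKO libraries 1 to 4. The groups did not overlap, and the means were 76.2 ± 10.03 and 111.5 ± 13.0 FPKM (SD, n = 4 each). For Myl9 the log2 fold change was 0.55 with a standard error of 0.13 (limma adjusted p = 0.178). Acta2 and Myl9 were thus 2 of 8 tested genes in which every cKO library exceeded every control library, which 3.64% of all genes tested did. For either gene alone the exact two-sided permutation p was 0.0286, the smallest that 4 libraries against 4 can give.

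Myh11, the smooth muscle myosin heavy chain (ENSMUSG00000018830, GRCm38 chromosome 16, 14194535 to 14291372, minus strand), had 9.76, 6.20, 9.51 and 11.3 FPKM in control libraries 1 to 4. In cKO libraries 1 to 4 it had 7.71, 9.60, 10.4 and 12.9 FPKM. The groups overlapped, and the log2 fold change was 0.15 with a standard error of 0.20 (adjusted p = 0.838). Without control library 2 the value turned to -0.03. The log2 ratio of Myh11 to Myl9 was -3.06 ± 0.24 in control and -3.46 ± 0.16 in cKO testes (SD, n = 4 each), and the groups overlapped.

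Mylk encodes myosin light chain kinase, which activates the light chain that Myl9 encodes (ENSMUSG00000022836, GRCm38 chromosome 16, 34745210 to 35002420, plus strand). Its level was 5.92, 8.17, 10.2 and 11.3 FPKM in control libraries 1 to 4 and 7.99, 10.2, 10.1 and 10.99 FPKM in cKO libraries 1 to 4. The low control value came from library 1, and the cKO libraries lay within the control range. For Mylk the log2 fold change was 0.17 with a standard error of 0.19 (adjusted p = 0.803), and -0.01 without control library 1.

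Among the actin-binding proteins, Smtn and Lmod1 were higher in cKO testes at the unadjusted level. Smtn encodes smoothelin, a protein of contractile smooth muscle filaments (ENSMUSG00000020439, GRCm38 chromosome 11, 3517523 to 3540612, minus strand). It stood at 2.30, 2.39, 4.50 and 3.48 FPKM in control libraries 1 to 4 and at 4.04, 4.78, 4.68 and 5.86 FPKM in cKO libraries 1 to 4. Control library 3 overlapped the cKO group. The log2 fold change of Smtn was 0.64, the highest of the 10 genes, with a standard error of 0.22 (limma adjusted p = 0.336). It was 0.51 without control library 1 (adjusted p = 0.273).

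Lmod1 encodes leiomodin 1, which nucleates actin filaments in smooth muscle (ENSMUSG00000048096, GRCm38 chromosome 1, 135324807 to 135368065, plus strand). It had 1.51, 1.23, 1.69 and 2.27 FPKM in control libraries 1 to 4 and 2.25, 2.11, 2.28 and 2.69 FPKM in cKO libraries 1 to 4. Control library 4 overlapped the cKO group, and the log2 fold change was 0.48 with a standard error of 0.19 (limma adjusted p = 0.404). It no longer passed the unadjusted level when control library 1 (log2 fold change 0.45), control library 2 (0.35), cKO library 3 (0.49) or cKO library 4 (0.41) was left out.

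Cnn1 and Tagln, both classical markers of the differentiated state, were close to the low end of what this depth resolves. Cnn1 encodes calponin 1, an inhibitor of the actin-activated myosin ATPase (ENSMUSG00000001349, GRCm38 chromosome 9, 22099216 to 22109630, plus strand). Its level was 0.865, 0.947, 0.959 and 0.825 FPKM in control libraries 1 to 4 and 0.999, 1.10, 1.06 and 1.27 FPKM in cKO libraries 1 to 4. The groups did not overlap, as in 3.78% of the 15937 genes, but the gap between them was small. In control library 3 the 95% Poisson interval was 0.688 to 1.30 FPKM (exact, 41 fragments) and in cKO library 1 it was 0.748 to 1.31 FPKM (exact, 53 fragments). The intervals cover counting error only. Cnn1 had a log2 fold change of 0.27 with a standard error of 0.16 (adjusted p = 0.574).

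Tagln encodes transgelin (SM22 alpha), an actin cross-linking protein (ENSMUSG00000032085, GRCm38 chromosome 9, 45929619 to 45936058, minus strand). It was the only one of the 10 genes with a log2 fold change below 0. Its level was 0.653, 0.527, 1.35 and 0.890 FPKM in control libraries 1 to 4 and 0.856, 0.599, 0.418 and 0.978 FPKM in cKO libraries 1 to 4. The highest and the lowest library of Tagln were control 3, with 42 fragments, and cKO 3, with 14 fragments. The log2 fold change was -0.22 with a standard error of 0.31 (adjusted p = 0.844), and the spread between mice was wider than counting error, since control library 2 (95% Poisson interval 0.317 to 0.823 FPKM) and control library 3 (0.974 to 1.83 FPKM) did not overlap.

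Des encodes desmin, the muscle intermediate filament protein (ENSMUSG00000026208, GRCm38 chromosome 1, 75360329 to 75368579, plus strand). It had 1.67, 1.18, 1.18 and 1.07 FPKM in control libraries 1 to 4 and 1.39, 1.28, 1.64 and 1.95 FPKM in cKO libraries 1 to 4. Control library 1 lay above 3 of the 4 cKO libraries. Des had a log2 fold change of 0.28 with a standard error of 0.19 (adjusted p = 0.655).

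**Figure D2:**
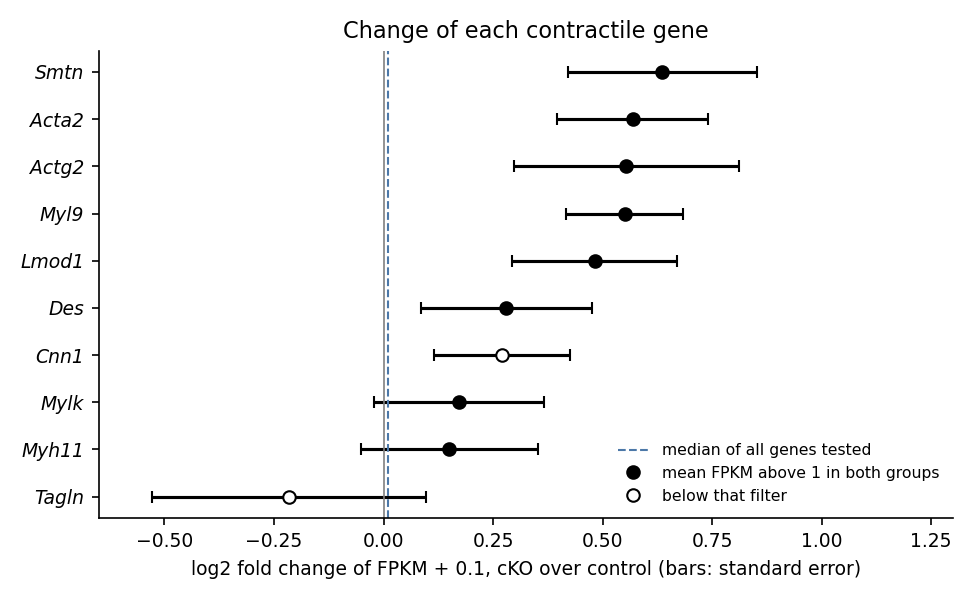
Log2 fold change (cKO over control, log2 of FPKM + 0.1) of each contractile gene with its limma standard error, filled for genes above the filter and open for Cnn1 and Tagln. Values run from 0.64 for Smtn to -0.22 for Tagln, and the dashed line marks the median of all genes tested, 0.01.

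Over all libraries, the highest library was cKO 4 for 7 of the 10 genes, and the lowest was control 2 for 5 and control 1 for 2. The mean deviation of the 8 tested genes from their group mean, on the log2 scale, was -0.09, -0.31, 0.10 and 0.29 in control libraries 1 to 4 and -0.19, -0.06, 0.06 and 0.19 in cKO libraries 1 to 4. Over the 28 pairs of these genes, the Pearson r of the deviations over 8 libraries ranged from -0.453 for Des with Actg2 to 0.956 for Acta2 with Myh11, with a median of 0.529. The genes of a library share its scaling and its RNA sample, and the r values are given as a description.

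**Figure D3:**
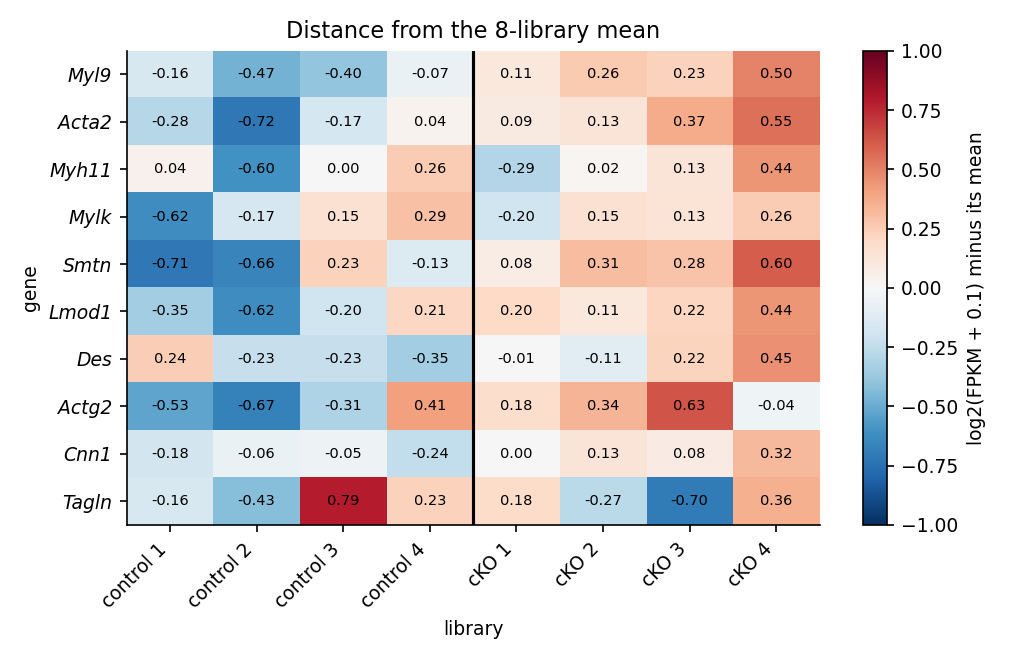
Each cell gives the log2(FPKM + 0.1) of 1 gene in 1 library minus its mean over the 8 libraries, red above and blue below that mean. Control library 2 lies below the mean for all 10 genes, and cKO library 4 lies above it for every gene but Actg2.

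Ratios between the genes within a library take out the scaling of that library. Of the 28 ratios between the 8 tested genes, 3 did not overlap between the groups, and these are given without a test because they were singled out by their values. The log2 ratio of Acta2 to Myh11 (each as FPKM + 0.1) was 2.31, 2.52, 2.45 and 2.41 in control libraries 1 to 4 and 3.02, 2.74, 2.87 and 2.74 in cKO libraries 1 to 4. The mean log2 ratio of Acta2 to Myh11 was 0.42 higher in cKO testes. It was 0.36 to 0.45 higher when any 1 library was left out, which adds no support for a ratio singled out by its values. The log2 ratio of Myh11 to Lmod1 was 2.39 ± 0.17 in control and 2.06 ± 0.22 in cKO testes, and that of Mylk to Smtn was 1.47 ± 0.27 and 1.01 ± 0.09 (SD, n = 4 each). By contrast, the log2 ratio of Acta2 to Myl9 was -0.64 ± 0.21 and -0.62 ± 0.12 (SD, n = 4 each), a difference within the spread between libraries.

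The genes whose deviations were most like the mean of the contractile genes over the 8 libraries were Adcy7 (an adenylyl cyclase), Stag2 (a cohesin subunit), Fnbp1l (a membrane-curving adaptor), Prkar2a (a regulatory subunit of protein kinase A) and Arhgef12 (a guanine nucleotide exchange factor). Their Pearson r was 0.984, 0.981, 0.973, 0.966 and 0.962, and their Spearman correlation 1.0, 0.976, 0.929, 1.0 and 0.952. Without the 2 libraries farthest from the median, r was 0.904 to 0.981. They were picked as the highest of 12141 genes, and none had an unadjusted limma p below 0.05, with log2 fold changes of -0.07 to 0.26.

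All 6 actin genes had a log2 fold change above 0, and the 4 above the filter kept this sign under each scaling tried. The cytoplasmic actins Actb (199.7 ± 14.0 FPKM in control and 235.9 ± 14.3 FPKM in cKO testes) and Actg1 (297.7 ± 33.3 and 360.8 ± 22.7 FPKM; SD, n = 4 each) did not overlap between the groups. Their log2 fold changes were 0.24 (adjusted p = 0.531) and 0.28 (adjusted p = 0.536), and 0.10 and 0.14 when each library was centred on 12 Sertoli cell genes. Cardiac actin, Actc1, was at 0.424, 0.409, 0.198 and 0.151 FPKM in control libraries 1 to 4 and at 0.701, 0.619, 0.806 and 0.473 FPKM in cKO libraries 1 to 4, without overlap (adjusted p = 0.273 in the fit with the lower filter). Skeletal actin, Acta1, reached at most 0.309 FPKM in any library. Actin transcripts are alike in sequence. No 100-base stretch of the longest coding transcript of any actin gene was found exactly in another, and the longest shared run of Acta2 was 56 bases, with Actg1.

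Of 27 tested genes of the thin filament and cytoskeleton of smooth muscle, 8 were higher in cKO testes at an unadjusted p below 0.05 and none was lower, with a median log2 fold change of 0.30. Vim, the intermediate filament vimentin, was the most abundant, at 79.9 ± 13.2 and 104.3 ± 10.1 FPKM (SD, n = 4 each; log2 fold change 0.39, adjusted p = 0.368). Zyx, the focal adhesion protein zyxin, had the smallest p, at 23.7 ± 2.03 and 32.5 ± 3.48 FPKM (SD, n = 4 each; log2 fold change 0.45, limma adjusted p = 0.178). Tagln2 and Cnn2, relatives of Tagln and Cnn1 that are used widely outside muscle, were chosen after their values were seen. Tagln2 was at 2.90, 5.72, 4.42 and 5.98 FPKM in control libraries 1 to 4 and at 6.94, 8.99, 8.72 and 9.67 FPKM in cKO libraries 1 to 4. Cnn2 was at 5.15, 5.11, 4.45 and 5.48 FPKM and at 6.16, 7.05, 6.94 and 8.12 FPKM, in the same order. Neither overlapped between the groups, with log2 fold changes of 0.88 and 0.48 and an adjusted p of 0.178 for each.

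The signalling genes that switch contraction on and off had a median near that of all genes. The list held 27 genes, of which 18 passed the filter and were tested. Of these 18, 1 was higher at an unadjusted p below 0.05 and none was lower, and the median log2 fold change was 0.00. The genes of the list below the filter are not part of these counts. That 1 was the oxytocin receptor Oxtr, with 0.956, 2.07, 0.962 and 2.28 FPKM in control libraries 1 to 4 and 2.84, 2.82, 1.83 and 3.68 FPKM in cKO libraries 1 to 4 (log2 fold change 0.86, adjusted p = 0.377). Of the 5 genes of non-muscle myosin II tested, 1 was higher at the unadjusted level, the light chain Myl12a, at 20.6 ± 0.67 and 25.7 ± 1.90 FPKM (SD, n = 4 each; log2 fold change 0.31, adjusted p = 0.266). The median of those 5 genes was -0.0021.

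Of 16 tested regulators of the contractile programme, 2 were higher at an unadjusted p below 0.05 and none was lower, with a median log2 fold change of 0.12. Tgfb1, the ligand transforming growth factor beta 1, had the smallest p, at 3.68, 4.69, 3.60 and 3.05 FPKM in control libraries 1 to 4 and 5.49, 5.32, 5.75 and 6.24 FPKM in cKO libraries 1 to 4 (log2 fold change 0.60, standard error 0.14, limma adjusted p = 0.173). Tgfbr2, its type II receptor, was at 1.10 ± 0.29 and 1.84 ± 0.24 FPKM (SD, n = 4 each) without overlap (log2 fold change 0.72, adjusted p = 0.233), and is named after its values were seen. The type I receptor Tgfbr1 had a log2 fold change of -0.08 (adjusted p = 0.859) and the signal transducer Smad3 one of 0.30 (adjusted p = 0.518). Srf itself was the most abundant, at 31.0 ± 14.2 and 27.7 ± 0.89 FPKM (SD, n = 4 each), and the wide control spread came from 51.7 FPKM in control library 1. Its log2 fold change was -0.07 (adjusted p = 0.946). Myocd, the gene of myocardin, averaged 0.110 FPKM in control and 0.153 FPKM in cKO testes, on 5 to 25 fragments per library. Its log2 fold change was 0.26 with a standard error of 0.32 (limma adjusted p = 0.808 in the fit with the lower filter).

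**Figure D4:**
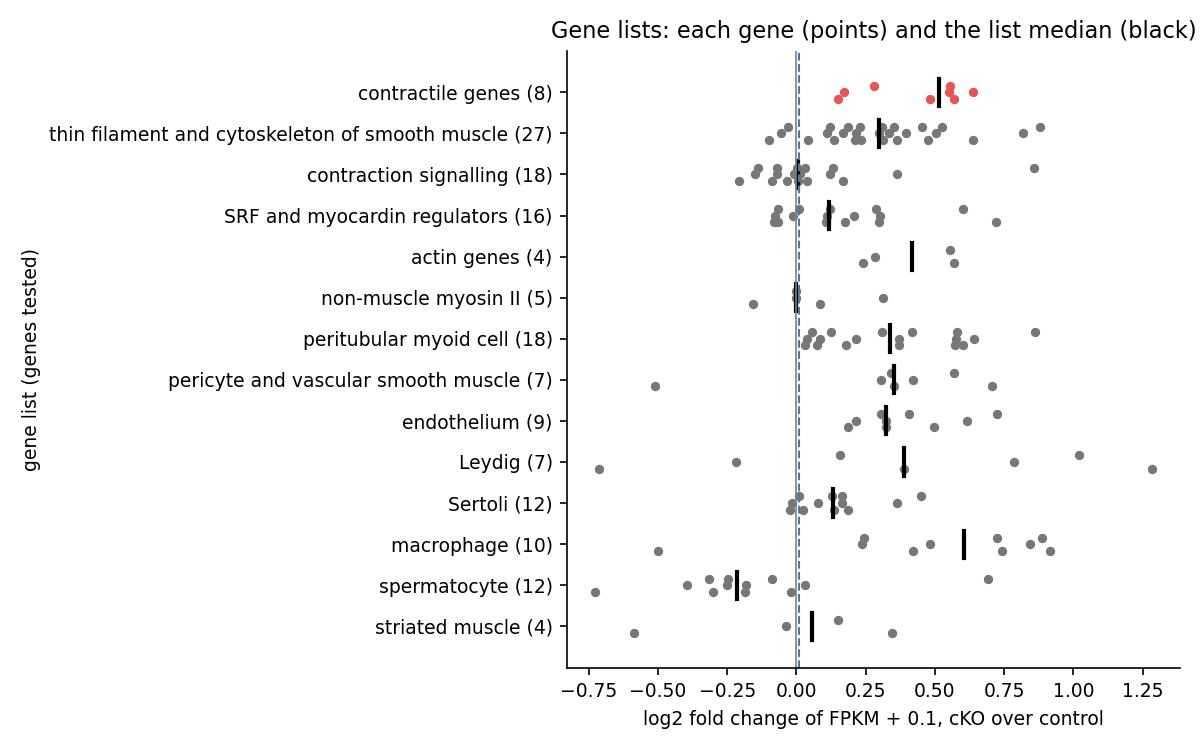
Log2 fold change (cKO over control, log2 of FPKM + 0.1) of each tested gene in each list with 4 or more tested genes, the contractile genes in red, with black bars for list medians and a dashed line at the median of all genes tested. The contractile genes have a median of 0.52, contraction signalling 0.00 and spermatocyte genes -0.22.

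Markers of the other cell types of the testis were measured beside the contractile genes, and none of them was called. All 18 tested markers of peritubular myoid cells had a log2 fold change above 0 (12 of 18 when libraries were centred on Sertoli genes), 6 were higher at an unadjusted p below 0.05 and none was lower, with a median of 0.34. Their summed level was 196.9 to 358.3 FPKM in control and 296.8 to 418.1 FPKM in cKO libraries, and the groups overlapped through control library 1 alone. Igfbp6, which binds insulin-like growth factors, was the most abundant, at 38.5 ± 11.2 and 57.0 ± 9.36 FPKM (SD, n = 4 each; log2 fold change 0.60, adjusted p = 0.349). Itga9, an integrin subunit, had the smallest p (log2 fold change 0.64, adjusted p = 0.266).

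Of 7 tested markers of pericytes and vascular smooth muscle, 2 were higher and 1 was lower at an unadjusted p below 0.05, with a median of 0.35. Mcam, an adhesion molecule of these cells, was both the most abundant and the one with the smallest p, at 20.7 ± 1.61 and 26.3 ± 2.50 FPKM (SD, n = 4 each; log2 fold change 0.34, adjusted p = 0.287). The sums over all 12 genes of this list, tested or not, were 32.3 to 41.2 FPKM and 40.9 to 50.1 FPKM. All 9 tested endothelial genes were above 0, of which 2 passed the unadjusted level, with a median of 0.32. The sums over all 12 endothelial genes listed were 17.5 to 29.6 FPKM and 28.0 to 36.1 FPKM. The most abundant was Cldn5 (log2 fold change 0.18, adjusted p = 0.874) and the smallest p was that of Cdh5 (log2 fold change 0.72, adjusted p = 0.412).

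Of 10 macrophage genes, 5 were higher and none was lower at an unadjusted p below 0.05, while 5.89% of all genes tested were higher. The median of the 10 was 0.60, with sums of 36.4 to 51.4 FPKM and 46.2 to 53.6 FPKM. C1qc had the smallest p (log2 fold change 0.88, adjusted p = 0.230), and Fcgr3, the most abundant, had a log2 fold change of -0.50 (adjusted p = 0.463). Of 7 tested Leydig cell genes, 4 were higher and none was lower at an unadjusted p below 0.05, and 5 had a log2 fold change above 0. Their median was 0.39, and the sums over all 10 Leydig genes listed were 50.4 to 73.1 FPKM and 60.4 to 79.9 FPKM. Scarb1, the receptor that supplies cholesterol, was the most abundant (log2 fold change 0.39, adjusted p = 0.451) and Hsd3b1, a steroidogenic enzyme, had the smallest p (log2 fold change 1.02, adjusted p = 0.390).

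Of 12 Sertoli cell genes none passed the unadjusted level, the median was 0.13 and the sums were 1816 to 2948 FPKM and 2315 to 2692 FPKM. Clu, the most abundant, had a log2 fold change of 0.36 (adjusted p = 0.541) and Fshr one of 0.45 (adjusted p = 0.520). Of 12 spermatocyte genes, 2 were lower and 1 was higher at an unadjusted p below 0.05. The median of the 12 was -0.22, with sums of 1418 to 2067 FPKM and 1144 to 1774 FPKM. Ldhc, the germ cell lactate dehydrogenase, was the most abundant (log2 fold change -0.73, adjusted p = 0.287), and Meiob, which acts in meiotic recombination, had the smallest p (log2 fold change 0.69, adjusted p = 0.280). The summed levels of all 7 of these cell type lists overlapped between the groups. Without control library 1, those of 3 lists did not: the highest control sum was then 296.2 FPKM for peritubular myoid cells, 27.6 FPKM for endothelium and 2076 FPKM for Sertoli cells, each below the lowest cKO sum. The part of these cell types in the differences of the contractile genes was not tested. With each library centred on its mean over the 12 Sertoli genes, a setting chosen after seeing the data that puts the median of all genes at -0.13, Acta2 was at a log2 fold change of 0.43 (adjusted p = 0.466) and Myl9 at 0.41 (adjusted p = 0.433), while Smtn (0.50, adjusted p = 0.488) and Lmod1 (0.34, adjusted p = 0.572) no longer passed the unadjusted level.

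Genes of tissues that could be carried along with the testis were mostly low. Of 17 striated muscle genes 5 averaged below 0.1 FPKM and 4 were tested, with a median log2 fold change of 0.05 and none at an unadjusted p below 0.05. The most abundant was Actn3 (log2 fold change -0.58, adjusted p = 0.498), and Mylpf had the smallest p (log2 fold change 0.35, adjusted p = 0.495). Of 12 epididymis genes 7 averaged below 0.1 FPKM, Gpx5 was listed at 0 in all 8 libraries, and the sum rested on Wfdc10, at 118.8 ± 19.5 and 168.8 ± 19.2 FPKM (SD, n = 4 each; log2 fold change 0.51, adjusted p = 0.273). Only Wfdc10 and Wfdc9 of this list passed the filter, and the next, Cuzd1, averaged 0.173 FPKM. With the other genes that low, the level of Wfdc10 is not read as a sign of epididymis tissue, and its source was not tested. None of the 7 mesothelium genes passed the filter, and their sums were 1.40 to 2.02 FPKM and 0.754 to 1.43 FPKM, with Lrrn4 the most abundant. Of 6 fat genes only Plin1 was tested (log2 fold change 0.14, adjusted p = 0.866). Of the 3 blood genes tested, 1 was higher at the unadjusted level, the globin Hbb-bs (log2 fold change 0.87, adjusted p = 0.437).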

How the data were processed

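Bulk RNA-seq of whole testes (4 control and 4 cKO mice) was deposited by the authors as FPKM values in a table of 54532 genes, together with a file per library that equalled the table in all 8 cases. The paper states paired-end sequencing, company software for FPKM and DESeq2 for the authors' own calls. The aligner, counter and use of strand are not given in the sources used here, and without strand, reads of overlapping antisense genes cannot be told apart. The submitters' processing notes name GRCm38 and mm10. FPKM multiplied by gene length gave whole fragments for 100% of values (tolerance 0.02), so the fragments behind each value are known. The library size within the deposited FPKM was 0.938 to 1.05 times the fragment total. The labels and the paper differ in the tamoxifen times and in the RNA purification.

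The test was limma 3.58.1 in R 4.3.3 (lmFit, then eBayes with its trend option), applied to log2(FPKM + 0.1) without covariates, with Benjamini-Hochberg adjustment over all genes tested. Fold changes on this scale understate those of low genes. The filter and thresholds follow the paper. The count-based test of the authors was not run. At these thresholds the paper reports more called genes than the 2 called here, all of them on autosomes. A gene not called here is therefore not shown to be uncalled by that test. Standard deviations measure the spread between mice. The limma p-values set the difference between the groups against that spread, with the variance of each gene moderated by eBayes over all genes tested. Every pair of libraries within a group differed by more than sampling noise (at least 3.93 times per gene), so each library was counted once. Both groups use replicate numbers 1 to 4. The correlation of deviations from the group means was 0.0757 to 0.406 for libraries with the same number, and no label ties a number to a litter, so the comparison was unpaired.

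The genes and gene lists were chosen with earlier results of these data known, so counts over them are descriptive. Named genes were all 10 contractile genes, from each other list the most abundant gene and the one with the smallest p, any gene called, all 6 actin genes, and the 5 genes with deviations most like those of the contractile genes. A gene that this rule names is not reported here. Promoters came from RefSeq (GRCm38.p6) and transcripts from GENCODE vM21 on GRCm38. The procedure was tested on simulated data. Alternatives were other pseudocounts, filters and biotypes, centring, TPM, array weights, a replicate block, voom on recovered fragments, eBayes with the trend off and each library left out. Figures were drawn with matplotlib 3.10.9.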

Additional observations from a re-analysis of the deposited data

How the results depend on the processing

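None of the tested contractile genes was called under any alternative run. The count at an unadjusted limma p below 0.05 was 4 in the reported fit, 2 with a mean above 5 FPKM in both groups (where 4 of the genes were tested) and 2 with libraries centred on the Sertoli genes, a setting added after seeing the data. It was 5 with array weights and with eBayes without trend, where Actg2 also passed, and 3 to 4 with 1 library left out. With a replicate block it stayed at 4 and no gene of the series was called. With the block, Acta2 had an adjusted p of 0.122 and Myl9 of 0.126, and it turned no direction of a contractile gene. Array weights gave control library 1 a weight of 0.161 and cKO library 3 one of 4.45. With these weights, Acta2 (log2 fold change 0.72, limma adjusted p = 0.0347) and Myl9 (0.64, adjusted p = 0.0210) passed the adjusted p but not the fold change. Of all 12141 genes tested, 454 passed that adjusted p with the weights, against 2 in the reported fit, and 57 were called against 2. The genes higher at an unadjusted p below 0.05 rose from 715 to 1337. With 1 library left out, Myh11 ranged from -0.0264 (without control replicate 2) to 0.273 and Mylk from -0.0072 (without control replicate 1) to 0.299, the only changes of direction. Acta2 and Myl9 had an unadjusted p below 0.05 in all 21 alternatives, with log2 fold changes of 0.42 to 0.72 and 0.41 to 0.64, and adjusted p of 0.0347 to 0.799 and 0.0210 to 0.584. Smtn had one in 19 of 20 and Lmod1 in 15 of 20. Genes at an unadjusted p below 0.05 over the series were split into 715 higher and 607 lower, and into 907 and 360 with TPM and 174 and 1122 with centring on Sertoli genes. The causes of these shifts were not tested. Cnn1, Tagln and Actg2 rest on 14 to 59 fragments per library, which limits what this depth can resolve for them.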
